A study of Arabidopsis thaliana with 6 samples.

Results

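The miRNAs miR472 and miR825 were followed in small RNA libraries from 14-day-old Arabidopsis thaliana seedlings of the mutant aar2-1 and of the wild type (WT). An entry was taken as a member when any miRNA name in it was miR472 or miR825, whatever the letter or arm, and 3 of the 197 entries met this rule: miR472-3p, miR472-5p and miR825. Each genotype had 3 libraries of whole seedlings, grown in long days on MS medium with no treatment named, and the labels number the replicates without saying whether they came from separate sowings. If they did not, the p-values below measure only the spread between libraries, which may be technical. AAR2 belongs to a protein family whose yeast member takes part in assembly of a spliceosomal particle; the kind of allele in aar2-1 is not given in the labels.

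Plants detect many pathogen proteins through intracellular receptors of the NLR class, which carry a nucleotide-binding domain and leucine-rich repeats. Their N terminus is either a coiled coil (CC-NBS-LRR) or a TIR domain (TIR-NBS-LRR). Several plant miRNAs pair with NLR transcripts, and miRNAs of 22 nt that cut a transcript can start the production of secondary small interfering RNAs (siRNAs) from it through the polymerase RDR6. In Arabidopsis, miR472 is known for pairing with CC-NBS-LRR transcripts and for lowering resistance to Pseudomonas syringae together with RDR6. The hairpin of miR825 is known for a 5p strand that pairs with TIR-NBS-LRR transcripts.

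The mature sequences are shown because the arm decides which transcripts each entry can pair with. They are the RefSeq annotation's sequences on TAIR10.1, written 5′ to 3′ with the seed (bases 2 to 8) in capitals.
miR472-3p: uUUUUCCUacuccgcccauacc
miR472-5p: aUGGUCGAaguaggcaaaauc
miR825: uUCUCAAGaaggugcaugaac
The entry miR472-3p is 22 nt long, and miR472-5p and miR825 have 21 nt each. None of the 3 seeds was shared with another of the 197 entries, and each mature sequence matched the genome exactly at 1 place. MIR472 (AT1G12294) lies on the minus strand of chromosome 1 at 4182132 to 4182299, with miR472-3p at 4182143 to 4182164 and miR472-5p at 4182266 to 4182286. It sits in an exon of AT1G12290, itself a CC-NBS-LRR gene, outside the coding sequence and in 1 of that gene's 4 annotated transcripts. MIR825 (AT2G26211) lies on the plus strand of chromosome 2 at 11159660 to 11159845, with miR825 at 11159774 to 11159794, in an exon of all 4 annotated transcripts of the transcribed pseudogene AT2G26220.

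In the predicted fold of the 186-base MIR825 precursor, the entry miR825 lies on the 3p arm, at bases 115 to 135. It is printed in capitals within the precursor.
MIR825: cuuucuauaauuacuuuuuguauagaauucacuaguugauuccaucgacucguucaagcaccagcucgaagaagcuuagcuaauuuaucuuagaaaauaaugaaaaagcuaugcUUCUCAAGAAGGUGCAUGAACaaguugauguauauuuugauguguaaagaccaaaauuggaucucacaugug
The strand that would face it in a duplex with 3′ overhangs of 2 bases was read from the fold (chromosome 2, 11159713 to 11159734, plus strand).
strand opposite miR825: uCAAGCACcagcucgaagaagc
Applied to miR472-3p, the same procedure returned miR472-5p with 1 more base at its 5′ end. The abundance of the strand opposite miR825 was not analysed here, so every value given for miR825 below is that of the 3p strand.

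The label of these miRNAs as NLR-targeting was checked by pairing each sequence, without gaps, against the annotated mRNAs of 31464 genes. A mismatch cost 1 and a G:U pair 0.5, doubled at miRNA positions 2 to 13, and sites were kept up to a penalty of 4. Genes whose product name speaks of disease resistance, NB-ARC or NBS-LRR were counted as NLR genes, and they made up 194 of the genes searched (0.617%). A site is a match of letters, and no mRNA was measured here.

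Sites for miR472-3p were found in 16 genes, of which 14 were NLR genes by product name, and all 16 sites lay in coding sequence. Among those with the lowest penalty were AT1G51480 and AT5G43740 with 1, AT1G12290 with 1.5, and AT5G63020 with 2.5. In the sites below, capitals mark bases that form Watson-Crick pairs with the miRNA.
AT1G51480 (chromosome 1, 19092853 to 19092874, minus strand): GGUAUGGGgGGAGUAGGAAAAA
AT1G12290 (chromosome 1, 4180683 to 4180704, minus strand): GGcAUGGGuGGAGUAGGAAAAA
AT5G63020 (chromosome 5, 25285441 to 25285462, minus strand): GGUAUGGGuGGAGUAGGuAAAA
The gene whose exon holds the hairpin thus carries a site for the 3p strand in its own coding sequence. Of the 16 genes, 4 lie within 50 kb of MIR472, AT1G12290 among them. For miR472-5p no gene had a site up to this penalty.

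For the measured miR825 strand a site was found in 1 gene, AT1G36185, which encodes an uncharacterized protein, with a penalty of 3.5 and outside the coding sequence, and in no NLR gene. The strand opposite miR825 matched 19 genes, of which 17 were NLR genes by product name. Those with the lowest penalty were AT5G38850 with 1, AT4G14370 with 1.5, and AT1G63730, AT1G63740, AT1G63750, AT4G11170 and AT5G49140, tied at 2.5, all of the TIR-NBS-LRR class.
AT5G38850 (chromosome 5, 15555406 to 15555427, plus strand): GCUUCUUCGAGuUGGUGCUUGA
AT4G14370 (chromosome 4, 8283137 to 8283158, minus strand): GCUUCUUCGAGCUGGUGuUUGg
By these letters, the label NLR-targeting held for miR472-3p and for the unmeasured strand of MIR825. Up to a penalty of 4 it did not hold for the entry miR825 itself, nor for miR472-5p. At a limit of 5 each had a site in 1 NLR gene, AT5G36930 with 4.5 for miR825 and AT1G12290 with 5 for miR472-5p. The site in AT1G12290 lies at 4182146 to 4182166 within the MIR472 precursor and overlaps miR472-3p (4182143 to 4182164). It is thus the facing arm of the same hairpin, and not a separate NLR site.

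Abundance is given in RPM, which scales each entry's reads to a common library size. A single read was worth between 0.0868 and 0.142 RPM. If the inferred unit holds, the libraries' implied sizes lay between 7062198 and 11524176 reads. All 197 entries summed to 18430.1 to 27681 RPM in aar2-1 and to 46282 to 53127 RPM in WT, and aar2-1 replicate 1 was the highest of its group. Across the 131 entries with a mean of at least 1 RPM, libraries of 1 genotype correlated at 0.980 to 0.994 on the log2(RPM + 1) scale and libraries of different genotypes at 0.948 to 0.958. In whole seedlings, fewer cells that make a miRNA and less of it per cell cannot be told apart.

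The first comparison asked whether the member miRNAs differ in abundance between aar2-1 and WT. The 3p strand of miR472 and the entry miR825 were lower in aar2-1, by 4.20-fold and 2.57-fold in the ratio of means, whereas the 5p strand of miR472 passed no threshold. All 3 entries were above the minimum mean of 1 RPM and were tested with limma on log2(RPM + 1), with two-sided p-values adjusted by Benjamini-Hochberg across 131 entries. Of these entries, 61.1% passed an adjusted p of 0.05 as lower in aar2-1 and 2.29% as higher, with a median log2 fold change of -0.83. A fall past the threshold in 2 of 3 members is therefore near the background of all entries.

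The entry miR472-3p, the strand with NLR sites, had 1.30, 1.42 and 0.795 RPM in aar2-1 replicates 1 to 3 and 6.19, 4.92 and 3.64 RPM in WT replicates 1 to 3. These values correspond to 15, 10 and 7 reads in aar2-1 and to 58, 48 and 31 reads in WT. Each aar2-1 library lay below each WT library, as it did in 61.8% of tested entries in either direction. The means were 1.17 ± 0.331 RPM in aar2-1 and 4.92 ± 1.27 RPM in WT (SD, n = 3 each), and limma gave a log2 fold change of -1.44 with an SE of 0.26 (adjusted p 2.76e-04), number 29 of 131 from the lowest. That size and rank rest on the added 1 RPM (the pseudocount), which is near the mean in aar2-1. With 0.1 RPM the log2 fold change was -1.99 (limma adjusted p 4.67e-04). With 5 RPM it was -0.68 (limma adjusted p 2.90e-04). Among the 197 entries of a library, miR472-3p ranked 102 to 121 by abundance in aar2-1 and 84 to 98 in WT.

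The entry miR472-5p, the other strand of the same hairpin, had 6.33, 7.93 and 7.95 RPM in aar2-1 and 9.28, 6.46 and 9.64 RPM in WT, or 73, 56 and 70 reads in aar2-1 and 87, 63 and 82 in WT. The genotypes overlapped. The means were 7.40 ± 0.927 RPM in aar2-1 and 8.46 ± 1.74 RPM in WT (SD, n = 3 each), and the log2 fold change was -0.16 with a 95% interval of -0.79 to 0.47 (limma adjusted p 0.626). The interval thus holds values from a moderate decrease to a slight increase, and 15 of the 131 tested entries had a higher log2 fold change. While its RPM overlapped, its rank by abundance was 60 to 75 in aar2-1 and 76 to 79 in WT. The nearest ranks were 75 in aar2-1 replicate 1 and 76 in WT replicate 3. How many of the other entries had ranks that separated the genotypes was not counted.

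The entry miR825 had 7.46, 3.12 and 1.93 RPM in aar2-1 and 9.28, 12.1 and 10.8 RPM in WT, which is 86, 22 and 17 reads in aar2-1 and 87, 118 and 92 in WT. Each aar2-1 library was below each WT library, and aar2-1 replicate 1 was the closest to WT. The means were 4.17 ± 2.91 RPM in aar2-1 and 10.7 ± 1.41 RPM in WT (SD, n = 3 each), and limma gave a log2 fold change of -1.32 with an SE of 0.36 (adjusted p 0.00535). With a pseudocount of 0.1 RPM the log2 fold change was -1.55 and with 5 RPM -0.82, past the threshold in both. Without aar2-1 replicate 1 the ratio of means was 4.25-fold in place of 2.57-fold, and the log2 fold change was -1.75 (limma adjusted p 9.73e-05). That library also had the largest summed RPM of its genotype, 27681 against 20781 and 18430.1 RPM in aar2-1 replicates 2 and 3. As a share of the summed RPM of all entries, miR825 made up 0.0270%, 0.0150% and 0.0105% in aar2-1 replicates 1 to 3. In WT replicates 1 to 3 the share was 0.0175%, 0.0261% and 0.0205%, so that of aar2-1 replicate 1 was the highest of all libraries. The part of the summed RPM in the value of miR825 was not tested.

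**Figure D1:**
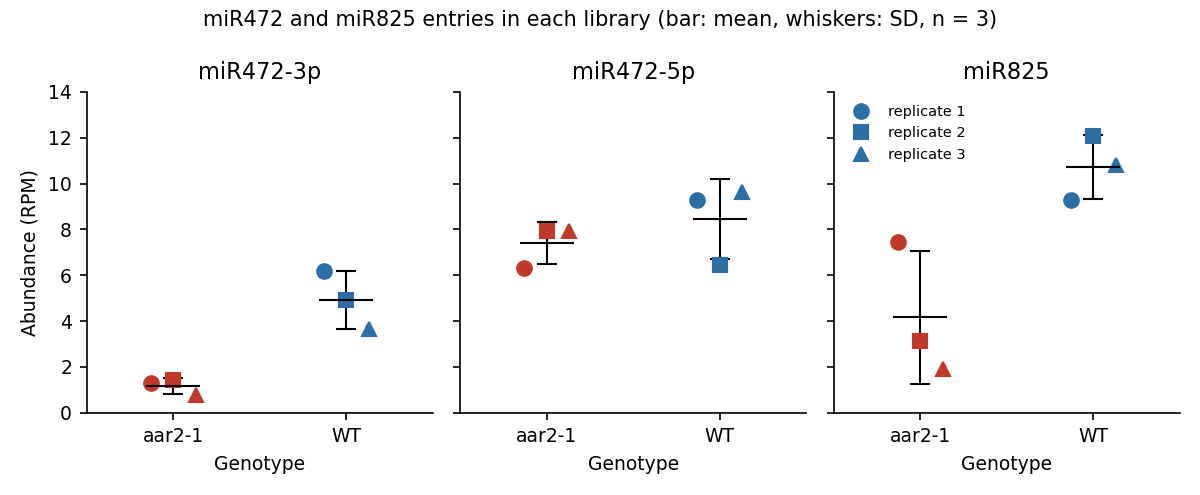
Abundance in RPM (vertical axis) of miR472-3p, miR472-5p and miR825 in each aar2-1 and WT library, with 1 point per library and bars for the mean and SD (n = 3 each). The genotypes do not overlap for miR472-3p and miR825, whose aar2-1 replicate 1 lies at 7.46 RPM, and overlap for miR472-5p.

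The order of the mean levels was as follows, neighbours being separated only where stated. In aar2-1, miR472-5p had the highest mean, miR825 was next and overlapped it, and miR472-3p was below every library of the others. In WT, miR825 had the highest mean, miR472-5p overlapped it, and miR472-3p was again below every library of the others. Within libraries, miR825 was above miR472-5p in aar2-1 replicate 1 and below it in aar2-1 replicates 2 and 3. In WT replicate 1 they were equal at 9.28 RPM. In WT replicates 2 and 3 miR825 was the higher, with 12.1 against 6.46 RPM and 10.8 against 9.64 RPM. The order was thus mixed in aar2-1, while in WT no library had miR472-5p higher. With so few libraries it is not settled in either genotype. These sequences have nearly the same length, and differences in how well each ligates to adapters are not known.

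**Figure D2:**
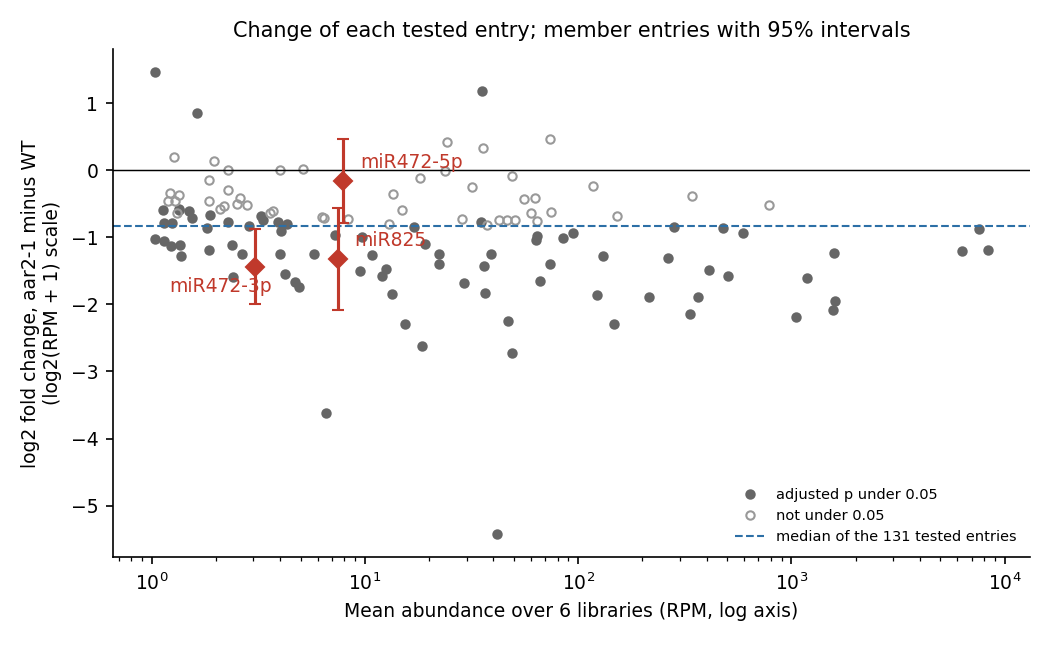
The log2 fold change of aar2-1 minus WT on the log2(RPM + 1) scale (vertical axis) against the mean RPM over the 6 libraries (log axis) for the 131 tested entries, filled where the limma adjusted p was under 0.05. The member entries (diamonds with 95% intervals) lie at -1.44 for miR472-3p, -1.32 for miR825 and -0.16 for miR472-5p, and the dashed line marks the median of -0.83.

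Since most entries were lower in aar2-1, the members were also set against the other miRNAs of the same library. Division by a median-ratio factor, taken per library from the entries at 10 RPM or more, raised the median log2 fold change of all entries by 0.84. The calls were then 27 lower and 22 higher, against 80 lower and 3 higher with the deposited values. Under this scaling the background is 20.6% of entries lower and 16.8% higher. Relative to the median ratio, miR472-3p was still lower in aar2-1, with a log2 fold change of -0.70 (limma adjusted p 0.0245). The entry miR472-5p had a log2 fold change of 0.81 and passed as higher (limma adjusted p 0.0177), whereas miR825 had -0.43 and did not pass (limma adjusted p 0.221). Quantile normalization, under which 12.2% of entries passed as lower and 13.7% as higher, gave -0.63 for miR472-3p (limma adjusted p 0.0480), 0.90 for miR472-5p (0.0531) and -0.36 for miR825 (0.393). Centring on the library median, which raised the median of all entries by 1.34, gave -0.095 for miR472-3p (limma adjusted p 0.783), 1.18 for miR472-5p (6.38e-04) and 0.020 for miR825 (0.939). After centring 12 entries passed as lower (9.16%) and 55 as higher (42%), so the balance of all entries turned with that of miR472-5p. The direction of miR472-5p therefore turned under all 3 scalings and that of miR825 under centring, while miR472-3p stayed negative in each.

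**Figure D3:**
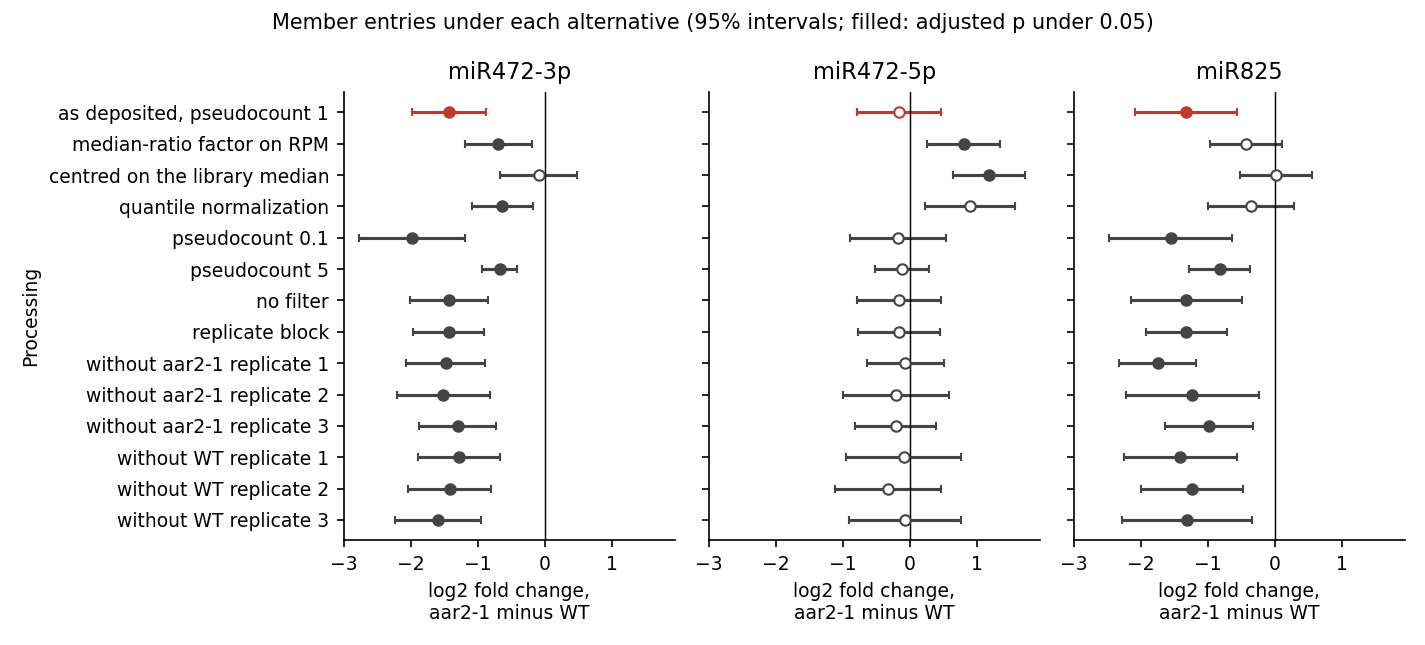
The log2 fold change of aar2-1 minus WT (horizontal axis, 95% intervals) of the member entries under each processing, filled where the limma adjusted p was under 0.05. The entry miR472-3p lies below 0 in every row, from -1.99 to -0.09, whereas miR472-5p runs from -0.32 to 1.18 and miR825 from -1.75 to 0.02.

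Expressed as a share of the summed RPM of all 197 entries, miR472-5p made up 0.0229%, 0.0382% and 0.0431% in aar2-1 and 0.0175%, 0.0140% and 0.0183% in WT. No mutant value reached down to a WT value (exact permutation test, two-sided, p = 0.10, which is the minimum with 3 libraries a genotype). Such a separation was common: of the 131 tested entries, 22.1% had a share that was higher in aar2-1 without overlap and 18.3% one that was lower. The share of miR472-3p was 0.00528% ± 0.00135 in aar2-1 and 0.00973% ± 0.00250 in WT (SD, n = 3 each), again without overlap and in the other direction (exact permutation p = 0.10). For miR825 the shares overlapped, at 0.0175% ± 0.00852 in aar2-1 and 0.0214% ± 0.00440 in WT (exact permutation p = 0.50). The 3 entries together were a larger share in aar2-1, 0.0575% ± 0.00274 against 0.0477% ± 0.00270 in WT (exact permutation p = 0.10). This larger sum came from miR472-5p alone, since the mean shares of miR472-3p and miR825 were lower in aar2-1. How many other sums of entries separated the genotypes was not counted.

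The second comparison asked whether the arms of the MIR472 hairpin moved together. They did not: the strand with NLR sites took a smaller part of the hairpin's reads in aar2-1. The 3p arm held 15 of 88 reads, 10 of 66 and 7 of 77 in aar2-1 replicates 1 to 3, and 58 of 145, 48 of 111 and 31 of 113 in WT replicates 1 to 3. The 3p share was 17.0%, 15.2% and 9.09% in aar2-1 and 40.0%, 43.2% and 27.4% in WT. Every aar2-1 library was below every WT library, and in 42.9% of the 14 hairpins compared below the shares likewise did not overlap. The 95% exact binomial intervals, which cover counting error only, were widest apart between aar2-1 replicate 3 (3.73% to 17.8%) and WT replicate 2 (33.9% to 53.0%), while WT replicate 3 (19.5% to 36.6%) overlapped aar2-1 replicate 1 (9.87% to 26.6%) and replicate 2 (7.51% to 26.1%). The mean share was 13.8% ± 4.16 in aar2-1 and 36.9% ± 8.35 in WT (SD, n = 3 each), a difference of -23.1 percentage points (exact permutation test, two-sided, p = 0.10, again the minimum). A share within a hairpin does not move with the scaling of a library.

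The same question was put to all 14 hairpins in the tables whose arms were separate entries of 1 name each and both above 1 RPM on average, in 1 limma fit of the log2(RPM + 1) difference between the arms. In miR472 the 3p arm changed by -1.28 more than the 5p arm on the log2 scale (SE 0.33, 95% interval -2.0 to -0.55, limma adjusted p 0.0113 over the 14 hairpins). Of the 14 hairpins, 5 passed, or 35.7%, so unequal arms were not confined to miR472. Its difference was the lowest of the 14, next to miR408 with -0.95, and the difference between those hairpins was not tested. The others that passed were miR403 with -0.85, with the difference in the same direction, and miR391 with 0.80 and miR396b with 2.43, with it in the other direction. In miR472 the arm that fell more was the less abundant in WT, with 36.9% of the reads. In miR391 it was also the less abundant, since 63.6% ± 3.32 of the WT reads were on 3p (SD, n = 3). In miR396b it was the more abundant, with 2.42% ± 0.709 of the WT reads on 3p, and likewise in miR408 and miR403, with 82.0% ± 2.36 and 89.3% ± 0.865 of the WT reads on 3p (SD, n = 3 each). The call for miR472 held in each of the 11 alternatives, with the limma adjusted p between 7.67e-04 and 0.0454. Its size did not hold, at -1.81 with a pseudocount of 0.1 RPM and -0.57 with 5 RPM. Its place as the lowest of the 14 was read only at a pseudocount of 1 RPM.

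**Figure D4:**
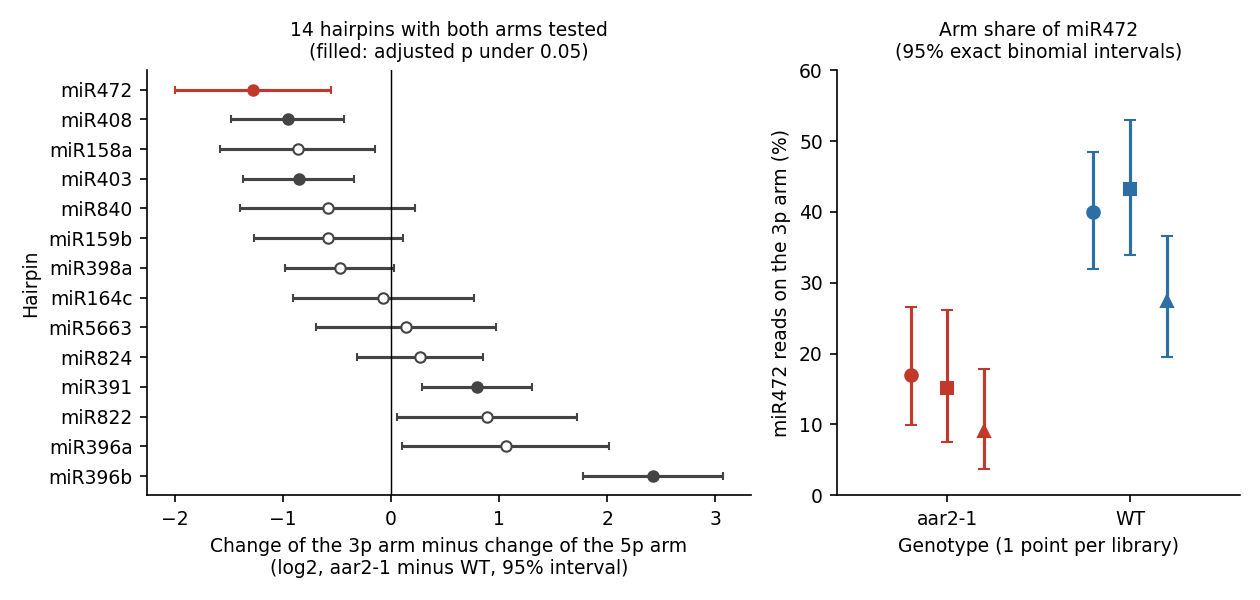
Left, the change of the 3p arm minus that of the 5p arm (log2, aar2-1 minus WT, 95% interval) for the 14 hairpins with both arms tested, filled where the limma adjusted p was under 0.05. Right, the percent of miR472 reads on the 3p arm in each aar2-1 and WT library with 95% exact binomial intervals: 9.09% to 17.0% in aar2-1 and 27.4% to 43.2% in WT.

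Summed over both arms, the miR472 family had 7.64, 9.35 and 8.74 RPM in aar2-1 and 15.5, 11.4 and 13.3 RPM in WT. The genotypes did not overlap, with means of 8.58 ± 0.867 RPM in aar2-1 and 13.4 ± 2.05 RPM in WT (SD, n = 3 each, two-sided exact permutation p = 0.10). Such a separation was common among tested entries (61.8%), and its share among families was not counted. In the limma fit of 76 families, where 59.2% passed as lower, its log2 fold change was -0.58 (SE 0.26, 95% interval -1.15 to -0.01) and did not pass (limma adjusted p 0.0667). The miR825 family is the single entry miR825, with a limma adjusted p of 0.00726 among families. Without aar2-1 replicate 2 that family p was 0.0559, past the threshold no longer.

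Within a library, the log2 ratio of miR825 to the miR472 family was -0.03, -1.58 and -2.18 in aar2-1 and -0.74, 0.09 and -0.30 in WT. The genotypes overlapped (two-sided exact permutation p = 0.30). In aar2-1 replicate 1 the amounts were nearly equal. The miR472 family was in excess in aar2-1 replicates 2 and 3 and also in WT replicates 1 and 3. The ratio sets 1 strand of MIR825, the one without NLR sites up to a penalty of 4, against the sum of both MIR472 arms.

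Entries whose log2(RPM + 1) followed a member most closely over the 6 libraries were named by Pearson's r, as a description. The libraries fall into 2 genotypes that most entries separate, so high values are common. Closest to miR472-3p were miR399d (0.996), of the phosphate starvation response, miR166e-5p (0.973) and miR164c-3p (0.972). The mean of miR399d was only 0.391 RPM in aar2-1, under the pseudocount of 1 RPM, and 1.90 RPM in WT. Closest to miR472-5p were miR838 (0.871), whose hairpin lies in an intron of DCL1, miR833a-5p (0.782) and miR840-5p (0.736). Closest to miR825 were miR840-3p (0.999), miR169f-3p (0.985) and miR168a-5p;miR168b-5p (0.974), the last of which pairs with the mRNA of AGO1. The arms of MIR472 correlated with each other at 0.311, and miR825 with miR472-3p at 0.829 and with miR472-5p at -0.00588.

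The members were then set among miRNAs with related roles. The first list held 8 families that trigger or are tied to secondary siRNAs: miR161 and miR400, which pair with transcripts of pentatricopeptide repeat proteins, miR173, miR390 and miR828, which act on TAS transcripts, miR393, which pairs with auxin receptor transcripts, and miR472 and miR825. Of its 15 entries 13 were tested, and 6 were lower and 0 higher in aar2-1 by limma, or 46.2% lower beside 61.1% of all tested entries. Without the member entries, 4 of 10 were lower. Its median log2 fold change was -0.74, beside -0.83 over all tested entries. The lowest was miR161.2 with -1.47, at 6.24 ± 3.56 RPM in aar2-1 and 19.0 ± 8.91 RPM in WT (SD, n = 3 each; limma adjusted p 0.00610), followed by miR472-3p and miR825. The highest was miR393a-3p with 0.42, at 28.1 ± 7.87 RPM in aar2-1 and 20.4 ± 3.96 RPM in WT (limma adjusted p 0.238). The number of called entries was 11 without aar2-1 replicate 1 and 10 without WT replicate 2, in place of 6.

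The second list held 10 families with reported parts in Arabidopsis immunity: miR160, miR393, miR396, miR398, miR400, miR472, miR773, miR825, miR844 and miR863. Here too every arm of a family was counted. Of its 23 entries 21 were tested, of which 11 were lower and 1 higher in aar2-1 by limma, with a median log2 fold change of -0.72. That is 52.4% lower, again beside 61.1% of all tested entries. Without the member entries, 9 of 18 were lower and 1 was higher. The lowest was miR396b-5p, which pairs with growth-regulating factor transcripts, with -1.96, at 685 ± 296 RPM in aar2-1 and 2528 ± 434 RPM in WT (SD, n = 3 each; limma adjusted p 4.51e-05). The highest was miR773a with 1.46, at 2.00 ± 0.791 RPM in aar2-1 and 0.0683 ± 0.118 RPM in WT (limma adjusted p 7.67e-05). Its WT mean is under the worth of 1 read, so that its fold change depends on the pseudocount. The lists share 4 families, including both members, and are not independent of each other.

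**Figure D5:**
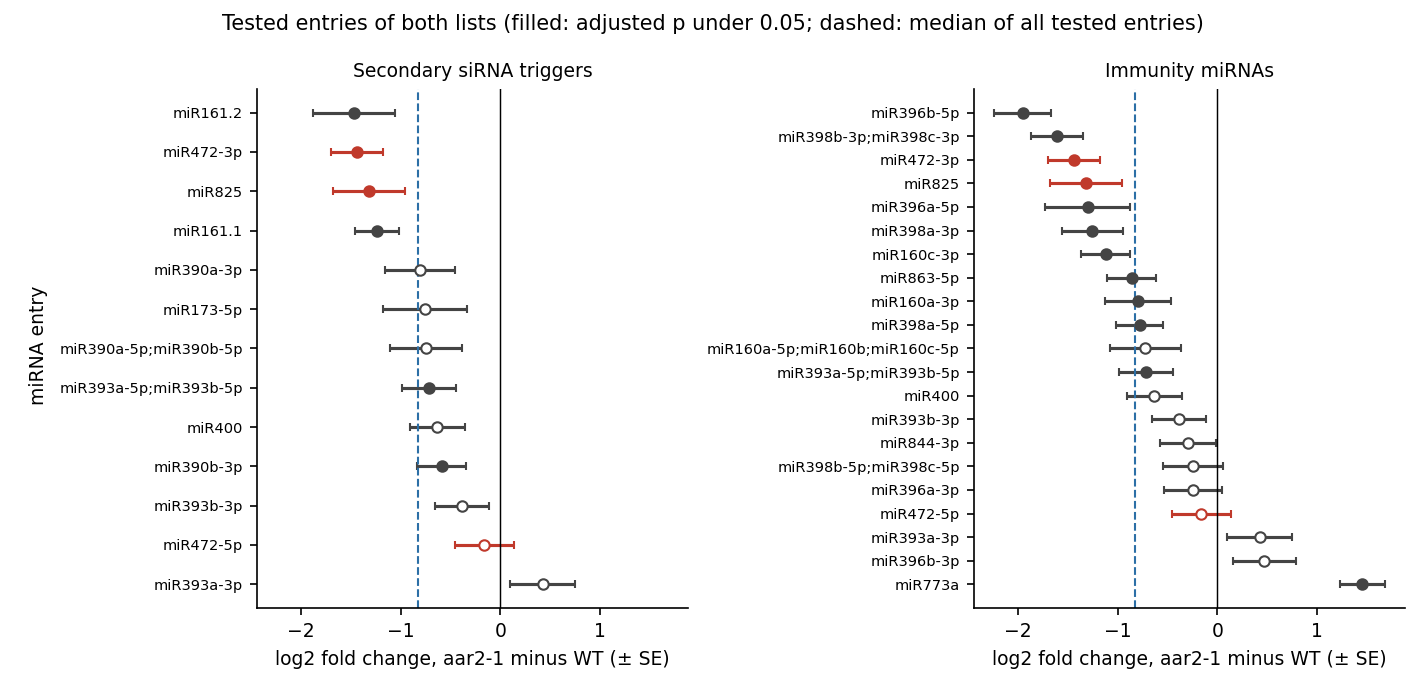
The log2 fold change of aar2-1 minus WT (horizontal axis, bars SE) of the 13 tested entries of the secondary siRNA list and the 21 of the immunity list, filled where the limma adjusted p was under 0.05, with the median of all tested entries at -0.83 as a dashed line. In the first list miR472-3p and miR825, at -1.44 and -1.32, come next to miR161.2 at the low end, and miR472-5p, at -0.16, comes next to miR393a-3p at the high end.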

How the data were processed

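Small RNA from 3 aar2-1 and 3 WT seedling libraries was deposited as 1 table per library. The values the authors deposited were taken as RPM. The unit was inferred, since every value was a whole multiple, within 0.02 reads, of the library's smallest non-zero value. Whole multiples show values in proportion to reads and do not by themselves give the scale. The denominator is not stated. The tools cutadapt and Bowtie and the build TAIR10 are named in the submitters' processing notes. Read lengths kept and the treatment of multi-mapping reads are not given in the sources used here.

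Genotypes came from the sample titles. Entries with a mean of at least 1 RPM were tested with limma 3.58.1 (R 4.3.3, variance trend), and the fit was tested on simulated data. Single quantities were compared with exact permutation tests over libraries. Reads were taken as RPM divided by the value of 1 read. Sequences, positions and sites came from RefSeq TAIR10.1; all 242 miRNA names were found there. Precursors were folded with RNAfold 2.7.2. Python 3.11.15, scipy 1.17.1 and pandas 2.3.3 were used.

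All member entries are reported. Similar entries (3 per member), the extreme entries of each list and the 5 best sites per sequence, with ties, were named by rule, except that an item among the sites is not reported here. The members and lists were chosen with earlier results of these data known. The arm comparison over hairpins and the strand opposite miR825 were added after seeing the data.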

Additional observations from a re-analysis of the deposited data

How the results depend on the processing

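Reads set the limit: miR472-3p rests on 7 to 15 reads per aar2-1 library. Of 187 values under alternatives, 149 kept their direction and side of the threshold or stayed within 1.5 times a count. Leaving out 1 library kept 92 of 96, while the other alternatives kept 57 of 91, with 20 counts moved and 7 directions reversed. The values from permutation tests could not change side, since their p cannot go below 0.10, so for these only the direction was informative. A minimum mean of 10 RPM leaves out all 3 members. The planned edgeR and DESeq2 fits were not run. Every value was a whole multiple of the value of 1 read, but the tables hold too few low values for a further check of the recovered counts. The reads and binomial intervals given above rest on the same recovered counts. Causes of the changes below were not tested, except that fewer entries can be called at 10 RPM.

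Of the 131 entries, 83 passed; 49 did so with the median-ratio factor, 34 after quantile normalization and 45 at 10 RPM. After centring 67 passed, 12 lower and 55 higher, against 80 lower and 3 higher as deposited. For families, 48 passed, against 31 with the factor, 31 after centring, 24 after quantile normalization and 31 at 10 RPM. The miR472-3p change was -0.095 after centring. That of miR472-5p was 0.81 (factor), 1.18 (centring) and 0.90 (quantile). That of miR825 was -0.43, 0.020 and -0.36 in the same order, and as a family -0.43, -0.22 and -0.43. The miR472 family gave 0.41, 0.52 and 0.54, and -0.58 passed at 10 RPM (limma adjusted p 0.0274). In the siRNA list 6 entries passed, 2 at 10 RPM; in the immunity list 12, with 6 after quantile normalization and 4 at 10 RPM. Of the hairpins 5 passed, and 9 with a pseudocount of 5 RPM. Genes with a site for miR472-3p numbered 9 at a penalty of 3 and 29 at 5; for miR472-5p, 9 at 5; for miR825, 0 at 3 and 19 at 5; for the strand opposite it, 11 and 34. At 5, 1 gene each for miR472-5p and miR825 was an NLR gene, in the case of miR472-5p only through the facing arm of its own hairpin.

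The deviations of same-numbered libraries from their group means correlated at 0.49, 0.05 and -0.15, and 2 of 6 libraries correlated best with their own number. With 3 libraries a genotype, these values cannot settle whether same-numbered libraries share a sowing or a batch. With the replicate block 98 entries, 56 families, 8 hairpins and 10 entries of the siRNA list passed, and no member call changed.

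Leaving out 1 library at a time, 62 to 109 entries, 34 to 64 families, 4 to 8 hairpins, 4 to 11 entries of the siRNA list and 8 to 14 of the immunity list passed. The log2 fold change ran from -1.60 to -1.28 for miR472-3p, -0.32 to -0.06 for miR472-5p and -1.75 to -0.98 for miR825.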

Other observations

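The entry miR472-3p has 22 nt, the length tied to secondary siRNAs. Of the 23 entries of 22 nt, 13 were tested, and 6 of them (46.2%) were lower and 0 higher in aar2-1 by limma, with a median log2 fold change of -0.74. All member entries lie in an exon of another gene on the same strand. Of the 22 such entries 13 were tested and 8 were lower (61.5%), with a median of -0.86, and 12 of the 27 entries in introns were tested and 3 were lower and 1 higher, with a median of -0.44. Among the 102 tested intergenic entries 66 were lower and 2 higher (64.7% lower), with a median of -0.89. These groups were formed after the data were seen, no test between them was made, and 61.1% of all tested entries were lower.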
